A study of Rattus norvegicus with 6 samples.

Results

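The genes of the cell junction and of the cadherin family were examined for differential DNA methylation in brain microvascular endothelial cells (BMECs) of stressed rats. A differentially methylated region (DMR) was included when its annotated gene was a claudin, occludin, a MARVEL domain protein, a zonula occludens protein, a junctional immunoglobulin protein, a junction scaffold of the cingulin, afadin or Magi type, a Par polarity protein, a numbered cadherin or a catenin. This gave 155 of 24862 annotated regions, each counted once per position and cytosine context. They lay in 40 of the 86 protein-coding RefSeq genes that match the rule, and 46 of these genes carried none. The share of all RefSeq genes with a region was not determined. Counts of genes with or without a region, here and below, therefore have no background beside them. Of all annotated regions, 12262 were assigned to any gene.

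The cells were sorted as CD45-/CD31+ from the hippocampus of male Sprague-Dawley rats. Per the study's methods the rats were 6 weeks old when obtained, before the stress, and the cells were taken after it. The CUMS group had undergone 8 weeks of chronic unpredictable mild stress, and the Ctrl group had not. Each group held 3 samples, and no genotype or drug distinguished them. For each region the tables give 1 methylation level per group, that is, the share of cytosines read as methylated, given here in percent. Values per rat were not analysed here, so levels are given without an error, the read depth behind each region's level is unknown, and whether a difference exceeds the variation among the 3 rats of a group could not be tested. The purity of the sorted cells was not tested here, since the files analysed hold no expression values. Every region was listed because it differed between the groups, so each difference is a description of the list and not a test. "Hypermethylated" means a higher level in CUMS and "hypomethylated" a lower one. Coordinates are on mRatBN7.2.

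Endothelial cells of the brain are sealed by tight junctions, in which claudins, occludin and tricellulin span the membrane and zonula occludens, cingulin and Magi proteins tie them to actin on the inside. Adherens junctions lie beside them and are built from cadherins, which bind the same cadherin on the next cell, and from catenins, which link the cadherin tail to the cytoskeleton. VE-cadherin (Cdh5) is the main cadherin of endothelium, whereas many type II cadherins are best known from neurons. Methylation of CG sites is the common form in mammals, and CG islands at gene starts are usually unmethylated. In the CHG and CHH contexts, where H is any base other than G, methylation is rare in most tissues and more frequent in neurons.

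The starts of 12 of these genes carried a region annotated to a promoter, a transcription start site (TSS) or a 5′ UTR, and all 12 were matched to a RefSeq window from 250 bases before to 50 bases after the gene start. The windows are on GRCr8, a different build, so a region cannot be placed within them. They are shown to let the CG content of these starts be seen. Each is written 5′ to 3′ on the strand of the gene, with CG sites in capitals. Cdh22 (chr3:174389843-174390142, minus strand) had the largest promoter difference among the genes. Cldn7 (chr10:55188420-55188719, plus strand) was the only claudin with a promoter region. Cdh8 (chr19:5500216-5500515, plus strand) carried regions of all 3 contexts at its start, and Ctnna2 (chr4:112001302-112001601, minus strand) carried a region across its TSS. Cldn5 (chr11:95718549-95718848, minus strand) is the claudin that the study blotted, and it carried no region.
Cdh22: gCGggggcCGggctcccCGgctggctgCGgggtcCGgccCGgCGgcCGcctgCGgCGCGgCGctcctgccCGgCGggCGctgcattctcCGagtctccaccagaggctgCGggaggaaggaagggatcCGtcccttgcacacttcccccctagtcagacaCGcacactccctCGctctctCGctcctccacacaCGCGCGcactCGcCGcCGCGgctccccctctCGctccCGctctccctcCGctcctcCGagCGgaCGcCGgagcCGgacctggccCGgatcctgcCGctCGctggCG
Cldn7: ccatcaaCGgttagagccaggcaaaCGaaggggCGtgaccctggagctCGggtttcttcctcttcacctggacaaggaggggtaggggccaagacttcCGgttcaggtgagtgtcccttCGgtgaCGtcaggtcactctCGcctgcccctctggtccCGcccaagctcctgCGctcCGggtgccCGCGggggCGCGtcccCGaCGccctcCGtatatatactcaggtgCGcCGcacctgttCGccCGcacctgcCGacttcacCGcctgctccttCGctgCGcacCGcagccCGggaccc
Cdh8: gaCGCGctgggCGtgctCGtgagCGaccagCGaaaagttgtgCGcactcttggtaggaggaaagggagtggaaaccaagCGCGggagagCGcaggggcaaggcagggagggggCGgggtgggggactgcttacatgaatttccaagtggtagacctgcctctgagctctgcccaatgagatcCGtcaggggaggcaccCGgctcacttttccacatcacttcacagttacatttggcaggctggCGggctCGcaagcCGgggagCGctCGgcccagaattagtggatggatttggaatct
Ctnna2: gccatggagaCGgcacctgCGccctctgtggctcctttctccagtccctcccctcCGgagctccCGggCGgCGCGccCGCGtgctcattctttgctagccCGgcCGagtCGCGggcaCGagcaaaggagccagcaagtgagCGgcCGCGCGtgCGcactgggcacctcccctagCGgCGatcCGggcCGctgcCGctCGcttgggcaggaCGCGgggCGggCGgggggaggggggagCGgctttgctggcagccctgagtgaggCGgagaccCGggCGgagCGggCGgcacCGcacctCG
Cldn5: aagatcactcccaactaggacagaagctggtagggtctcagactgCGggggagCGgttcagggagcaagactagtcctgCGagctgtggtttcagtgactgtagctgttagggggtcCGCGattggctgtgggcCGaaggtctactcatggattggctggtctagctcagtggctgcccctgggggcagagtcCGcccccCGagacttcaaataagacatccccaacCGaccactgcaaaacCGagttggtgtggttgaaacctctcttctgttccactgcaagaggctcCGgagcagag

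The letters CG, which read the same on both strands, occurred 40 times in the Cdh22 window, 28 times in that of Cldn7, 18 times in that of Cdh8 and 37 times in that of Ctnna2. The Cldn5 window held 11. Over the 12 genes the median was 26.5 CG per window, and 11 of the 12 windows held at least 10. Over all 33469 windows of the table the median was 7, 41.5% held at least 10, and 94.5% held at least 1. The 1 window below 10 was that of Ctnnb1, with 7, although its deposited region was annotated as an island. The 12 genes were chosen by a listed region at their start, and their CG regions there all lay in islands. Their high CG counts therefore follow in part from the choice. Over the 63 windows of all genes that match the rule, the median was 9 CG, and 49.2% held at least 10. RefSeq gives 1 start per gene, and another start would give another window. Among the blotted genes, the Ocln window held 21 CG and the Tjp1 window 2.

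Direction was determined first. Of the 155 regions, 125 were hypermethylated and 30 hypomethylated, so 80.6% were higher in CUMS (exact 95% binomial interval 73.5 to 86.5%, which covers counting only). Over all annotated regions this share was 75.3%, and over those in any gene it was 78.1%. The junction and cadherin genes therefore lay near the background in direction. Among CG regions, 32 were higher and 4 lower in CUMS (88.9%, interval 73.9 to 96.9%), against 80.0% of all annotated CG regions and 87.7% of those in genes. Among CHG regions, 38 were higher and 16 lower (70.4%), against a background of 68.6%. Among CHH regions, 55 were higher and 10 lower (84.6%), against 78.5%. The annotated table holds all CG and nearly all CHG regions but only 9996 of the 145823 CHH regions of the full list, so numbers of regions cannot be compared between contexts. The size of the differences was also near the background. A difference of at least 10 percentage points was found in 49 regions (31.6%), against 31.1% of all annotated regions, and one of at least 20 points in 13 (8.39%), against 9.38%.

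The annotated location of the regions was determined next. Of the 155 regions, 83.2% were annotated to introns only, against 65.3% of all regions in genes. A promoter was annotated in 6.45%, against 18.7%, a CpG island in 15.5%, against 25.7%, and a repeat in 39.4%, against 33.0%. These shares pool the contexts, whose mix differed: 36 of the 155 regions were CG, against 4028 of the 12262 in genes. Within CG, CHG and CHH, a repeat was annotated in 13.9, 42.6 and 50.8%, against 13.2, 38.1 and 47.3%. A promoter was annotated in 22.2, 1.85 and 1.54%, against 37.2, 10.7 and 8.44%. For a CpG island the shares were 55.6, 5.56 and 1.54%, against 69.5, 7.24 and 1.32%. No test was applied to these shares. The long genes that carried most of the regions are described with the gene lengths at the end.

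Gene starts were then examined. All 16 regions at a promoter, TSS or 5′ UTR were hypermethylated, against 89.8% of such regions over the whole table. The 12 CG regions among them all lay in islands, as did 8 others within the genes, and all 20 island regions were hypermethylated, against 97.0% of all annotated island regions. The 12 levels at gene starts had a median of 6.19% in Ctrl and of 16.1% in CUMS. Outside islands 12 CG regions were hypermethylated and 4 hypomethylated (75%), against 61.1% of all annotated CG regions outside islands. In islands, too, the direction lay near the background.

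Among cadherins, the promoter of Cdh22 (chr3:153970777-153970961), a type II cadherin, was at 29.8% in CUMS and 6.72% in Ctrl. This was the only region at a gene start whose difference reached 20 points. The promoter of Cdh23, the cadherin of hair cell tip links, was at 14.0% and 7.18% (chr20:28622524-28622617). The 5′ UTR of Cdh8 was at 13.4% and 4.67% in CG (chr19:5494244-5494427). At the same place Cdh8 carried a CHG region at 9.28% and 0.182%, and a CHH region at 6.45% and 0.118%. It was the only member gene where regions of the 3 contexts overlapped. These 3 regions were also annotated to a second gene model without a common symbol, so they cannot be assigned to Cdh8 alone.

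Among catenins, a region of 450 bp and 148 cytosines across the TSS of Ctnnb1 (chr8:120639708-120640157) was at 16.1% in CUMS and 5.07% in Ctrl. Ctnnb1 encodes β-catenin, which binds the tail of classical cadherins and also acts in Wnt signalling. The TSS of Ctnna2, which encodes the neuronal αN-catenin, was at 21.6% and 6.95% (chr4:110443300-110443530). The 5′ UTR of Ctnnd2, which encodes δ-catenin, was at 16.1% and 5.71% in CG (chr2:81168462-81168586) and at 5.13% and 0.0196% in an overlapping CHG region. In all 3 genes CUMS was the higher group at the start.

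In the tight junction and polarity groups, which were formed by symbol, the Cldn7 promoter (chr10:54689624-54689749) was at 17.3% in CUMS and 6.44% in Ctrl. Claudin-7 is best known from epithelia. The promoter of Marveld1 was at 13.2% and 4.82% (chr1:240954039-240954379), and a CHG region in its 5′ UTR, 666 bp away, was at 4.35% and 0.0203%. The Cgnl1 promoter was at 15.0% and 6.69% (chr8:72424732-72424966), and the Magi2 promoter at 22.6% and 7.77% (chr4:15870352-15870596). Cgnl1 encodes paracingulin, and Magi2 encodes a scaffold with several PDZ domains. The 5′ UTR of Pard3 was at 19.4% and 5.93% (chr19:55080643-55080694), and that of Pard3b at 14.8% and 5.67% (chr9:63038799-63038994). The products of both genes are Par3 type scaffolds of cell polarity.

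**Figure D1:**
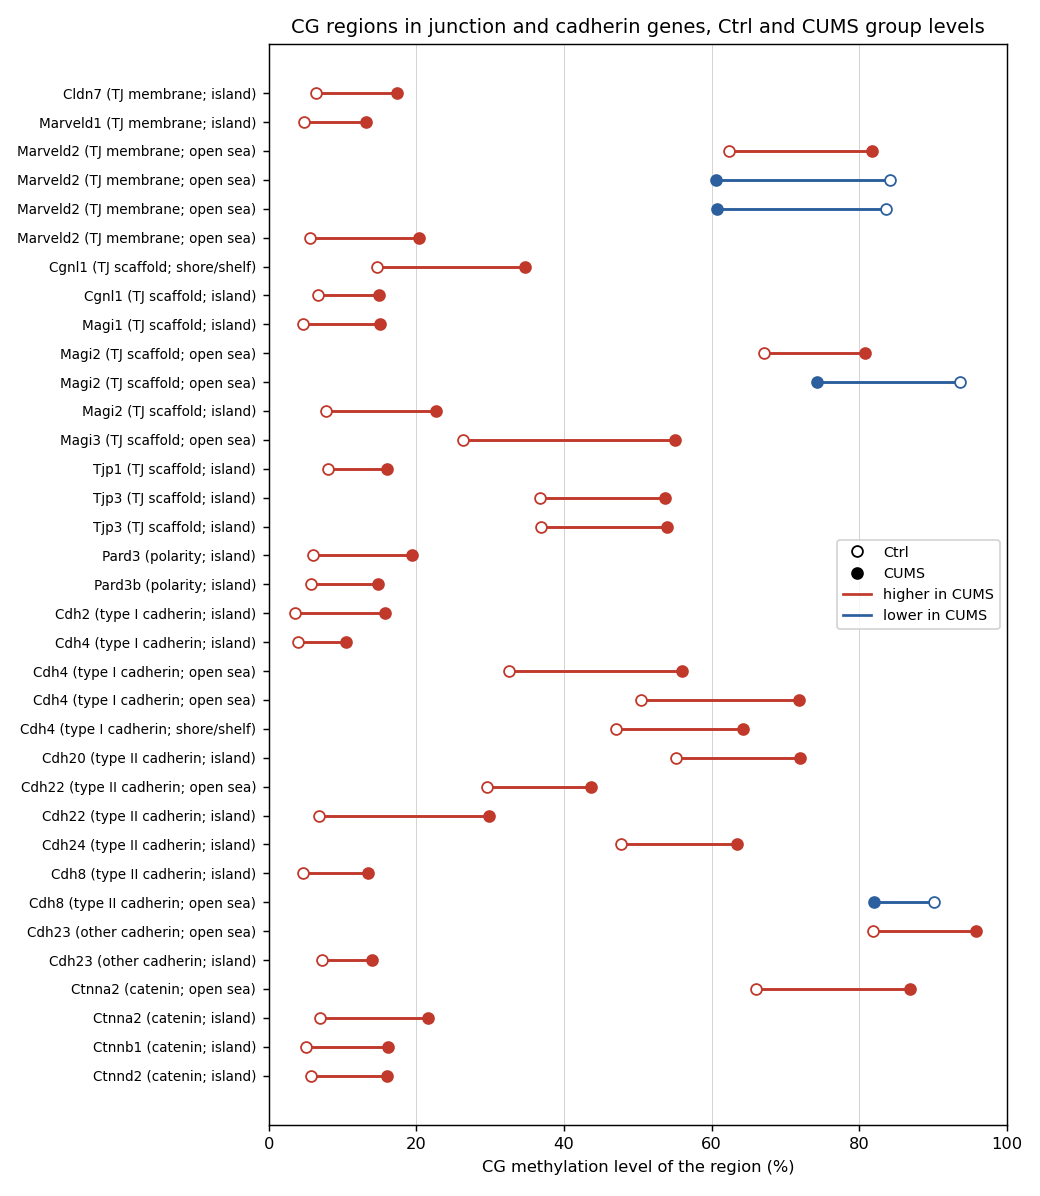
Methylation level in percent (horizontal axis) of each CG region of the named genes, with open circles for Ctrl and filled circles for CUMS (1 value per group, no error available), red lines where CUMS was higher and blue lines where it was lower. Island regions at gene starts sit at low levels with CUMS to the right, and the 4 blue regions, in Marveld2, Magi2 and Cdh8, start above 80% in Ctrl. A CG region of 1 further scaffold gene is not drawn.

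The CG regions were also counted by their Ctrl level, with limits set at 10 and 50%. A Ctrl level below 10% was found in 17 regions, of which 16 lay in islands, and all 17 were hypermethylated, with CUMS levels between 10.5 and 29.8%. Every CG region of these genes differed by at least 6.57 points, so one with a Ctrl level below 10% had little or no room to be lower in CUMS. The direction in this class therefore follows largely from the limits chosen. The same counts were not made over all annotated CG regions. The 8 regions between 10 and 50% in Ctrl were also all hypermethylated. Of the 11 regions at 50% or more in Ctrl, 7 were hypermethylated and 4 hypomethylated. All 4 hypomethylated CG regions lay in introns outside islands, shores and shelves.

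The group of tight junction membrane proteins was represented by 6 of 36 genes, with 12 hypermethylated and 2 hypomethylated regions. It was formed by symbol (Cldn, Marveld and Ocln), and a place at the junction was not examined for each member, such as Marveld1, Cldnd1 and Cldnd2. Claudin-5 (Cldn5), the most abundant claudin of the blood–brain barrier, carried no annotated region in any context, and neither did Ocln, Cldn1, Cldn3 or Cldn12. The RefSeq length of Cldn5 was 1.43 kb and that of Ocln 50.9 kb. The median over the 30 genes of this group without a region was 5.85 kb, against 15.5 kb over the 6 with one. A gene without a listed region may still differ below the limits of the list. Marveld2, which encodes tricellulin, the protein of the corners where 3 cells meet, carried 7 regions. It held the largest differences of the group, and these went in both directions. Intronic CG regions at chr2:31720429-31720528 and chr2:31721537-31721727, 1008 bp apart, were at 60.6% and 60.7% in CUMS and at 84.2% and 83.7% in Ctrl. A CG region at chr2:31680683-31680792 went the other way, from 62.3% in Ctrl to 81.7% in CUMS. The other CG region, outside islands but low, was at 20.4% in CUMS and 5.54% in Ctrl (chr2:31737170-31737469). The gene annotation of this stretch is uncertain. The 7 regions spanned 74.1 kb, whereas the RefSeq length of Marveld2 was 23.5 kb. No protein-coding RefSeq gene lies between Marveld2 and Ocln, and the gene on the other side of Marveld2 was not examined. Whether some of these regions lie in Ocln or in another gene was not determined, because positions were not converted between the builds. The lack of a region at Ocln therefore holds for the deposited annotation only, and the differences given for Marveld2 may belong to Ocln or to another gene.

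Among claudins outside the promoters, only CHG and CHH regions were listed. Cldn19, known from the kidney and from myelinating cells, carried an intronic CHG region at 10.9% in CUMS and 0.885% in Ctrl (chr5:132864027-132864192). Cldn10, a claudin with pore-forming isoforms, carried a CHH region at 12.2% and 0.349% (chr15:95886402-95886655) and a smaller CHG region. Cldn14 carried 1 CHH region. All of these were hypermethylated.

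Of the 5 junctional immunoglobulin genes only Pecam1 carried a region. Pecam1 encodes CD31, the surface protein by which the cells were sorted. Its single CHG region at an exon and intron (chr10:91607261-91607488) was at 5.95% in CUMS and 0.253% in Ctrl. F11r, Jam2, Jam3 and Esam carried none.

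The tight junction scaffolds were the group with most regions, 38 in 7 of 9 genes (32 hypermethylated, 6 hypomethylated). The largest CG difference among all the genes lay here, in an intron of Magi3 (chr2:191643441-191643580), at 55.0% in CUMS and 26.4% in Ctrl. An intronic shore region of Cgnl1 (chr8:72422616-72422669), which held only 5 cytosines, was at 34.7% and 14.7%. In contrast, an intronic CG region of Magi2 (chr4:15756811-15756891) fell from 93.7% in Ctrl to 74.2% in CUMS. Magi1, a PDZ scaffold of the same family, carried a CHH region at 24.1% and 0.325% (chr4:126760136-126760434). The largest CHG difference of the group was in Magi2, at 6.64% in CUMS and 1.22% in Ctrl (chr4:14967414-14967477). Afdn and Cgn carried no region.

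Tjp1 encodes ZO-1, which the study blotted together with claudin-5 and occludin. It carried 6 regions, 5 hypermethylated and 1 hypomethylated, all in introns. An intronic CG island region (chr1:119094140-119094202) was at 16.0% in CUMS and 7.96% in Ctrl. Of its 5 CHG regions, 4 were higher in CUMS, at 3.67 to 5.58% against 0.0123 to 0.646% in Ctrl. The other CHG region was at 0.0248% in CUMS and 2.52% in Ctrl (chr1:118904042-118904139), the smallest difference of any region in the 40 genes. No Tjp1 region was annotated to its promoter. Tjp3, which encodes ZO-3, carried 2 CG island regions at an exon and intron, 671 bp apart. They were at 53.6% and 54.0% in CUMS and at 36.8% and 36.9% in Ctrl, and are named here after their values were seen.

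Of the polarity genes, 3 of 4 carried a region, 12 hypermethylated and 2 hypomethylated. Pard3b carried 6 regions, all hypermethylated, in a gene of 1029 kb. Its CHG region (chr9:63262037-63262164) was at 8.06% in CUMS and 0.0174% in Ctrl, the largest CHG difference of the group. Pard3 carried 7 regions, of which 1 was hypomethylated, and its CHH region at chr19:55486585-55486859 was at 20.5% in CUMS and 0.0293% in Ctrl. Pard6g, which encodes a Par6 adaptor, carried a single hypomethylated CHG region at 0.998% and 5.76%, and Pard6b carried none.

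**Figure D2:**
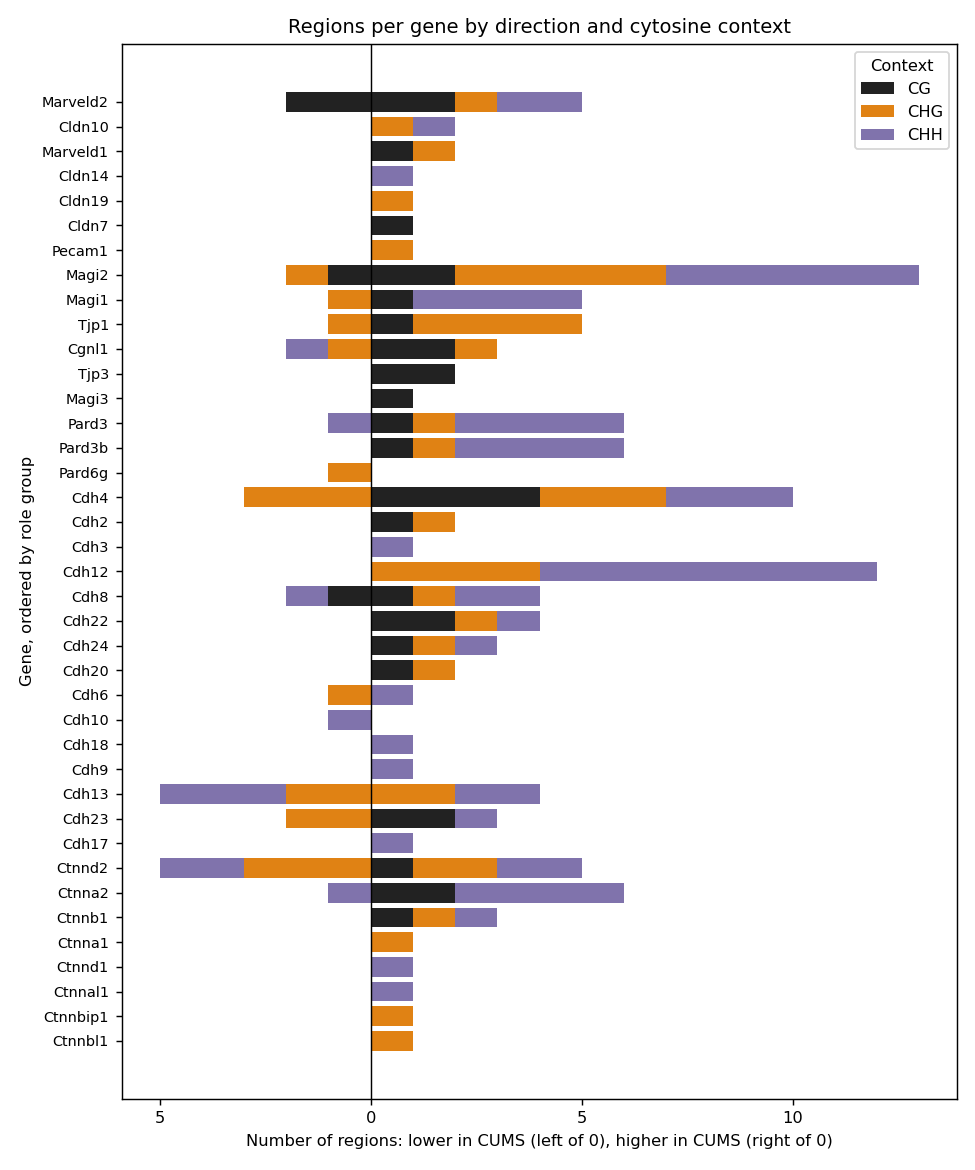
Number of regions per gene, with hypermethylated regions to the right of 0 and hypomethylated ones to the left, coloured by CG, CHG and CHH context; genes are ordered by role group, from tight junction membrane proteins at the top to catenins at the bottom. Magi2 (15 regions) and Cdh4 (13) are longest, Cdh12 has 12 regions to the right and none to the left, and Ctnnd2 is even at 5 and 5. A scaffold gene with 3 hypermethylated regions is not drawn.

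The type I cadherins, the classical group with E- and N-cadherin, carried 13 hypermethylated and 3 hypomethylated regions in 3 of 5 genes. Cdh4, which encodes R-cadherin, carried 13 of these 16. Its intronic CG region at chr3:166626975-166627039 was at 56.0% in CUMS and 32.5% in Ctrl, and that at chr3:166688985-166689067 was at 71.8% and 50.4%. A region in its 3′ UTR (chr3:167000071-167000192) was at 64.2% and 47.1%. All 4 CG regions of Cdh4 were hypermethylated, whereas its CHG regions were split 3 and 3. The largest CHH difference of the group was also in Cdh4, at 9.76% in CUMS and 0.101% in Ctrl (chr3:166839161-166839373). Cdh2, which encodes N-cadherin, carried overlapping CG and CHG regions in an intronic island, at 15.7% against 3.60% and at 8.12% against 0.0154%. The CHG difference was the largest of the type I group. Cdh1, which encodes E-cadherin, carried no region.

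The type II cadherins carried 28 hypermethylated and 4 hypomethylated regions in 9 of 13 genes. VE-cadherin (Cdh5), the member of this group that defines endothelial adherens junctions, carried none. Besides the Cdh22 promoter, the largest CG differences were in exons. An exonic island of Cdh20 (chr13:21068183-21068419) was at 72.0% in CUMS and 55.1% in Ctrl. An exonic island of Cdh24 (chr15:28092659-28092753) was at 63.4% and 47.7%, and it was also annotated to a second gene model. Cdh6 carried the largest CHH difference of the group, at 16.7% and 0.119% (chr2:62124869-62125101). The 1 hypomethylated CG region of the group, in an intron of Cdh8 (chr19:5555504-5555562), fell from 90.1% to 82.0%.

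A cluster of 5 type II genes on chromosome 2, Cdh6, Cdh9, Cdh10, Cdh12 and Cdh18, carried 17 of the 32 type II regions and no CG region. Of these 17, 15 were hypermethylated. Cdh12 alone carried 12, 4 in CHG and 8 in CHH, and all 12 were hypermethylated at CUMS levels of 2.98 to 15.4%. This one-sided pattern held only for the annotated regions: the full list held 39 further CHH regions between the first and the last of them, 22 hypermethylated and 17 hypomethylated. Cdh18, of similar length at 1002 kb against 1234 kb for Cdh12, carried 1 region. Cdh10 carried a single hypomethylated CHH region.

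The remaining cadherins were the most evenly divided group, with 8 hypermethylated and 7 hypomethylated regions in 3 of 5 genes. Cdh13 encodes T-cadherin, which is held in the membrane by a lipid anchor and is found on endothelium. It carried 9 regions, 4 hypermethylated and 5 hypomethylated, none in CG. Its largest CHG and CHH differences overlapped at the same intronic place, a CHH region (chr19:46445133-46445403) at 0.294% in CUMS and 8.81% in Ctrl and a CHG region at 0.324% and 7.62%. Cdh23 carried 5 regions. Its intronic CG region at chr20:28297458-28297536, which was also annotated to Vsir, was at 95.8% in CUMS and 81.8% in Ctrl. Its 2 CHG regions were hypomethylated.

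The catenins carried 16 hypermethylated and 6 hypomethylated regions in 5 of 6 genes. Ctnna2 carried the largest CG difference, at 86.8% in CUMS and 65.9% in Ctrl, in a region of 5 cytosines within a LINE repeat (chr4:110337010-110337070). It also carried a CHH region at 25.9% and 0.528% (chr4:110100468-110100714). Ctnnd1, which encodes p120-catenin, the protein that holds cadherins at the surface, carried a single CHH region at 20.7% and 0.0473% (chr3:69712099-69712331). Ctnnd2 carried 10 regions, 5 in each direction. One of them was the largest CHG difference in the 40 genes, a loss from 14.9% in Ctrl to 0.0444% in CUMS (chr2:81505530-81505786), within a CHH region that fell from 9.83% to 0.0588%.

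Among the genes with a catenin name that were grouped apart from the catenins, Ctnnal1 carried the largest difference of all 155 regions. This intronic CHH region (chr5:71563868-71564130), in an LTR repeat, was at 38.7% in CUMS and 0.123% in Ctrl, and was annotated to Tmem245 as well. Ctnnbl1, a protein of the spliceosome, carried a CHG region at 7.24% and 0.373%. Ctnnbip1, an inhibitor of β-catenin, carried 1 CHG region, also hypermethylated.

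Levels outside CG were then compared. The lower of the group levels was below 1% in 52 of 54 CHG and in 63 of 65 CHH regions, so nearly every such region was close to unmethylated in one group. Over all annotated regions this was so for 99.0% of CHG and 91.5% of CHH regions. Hypermethylated CHG regions had a median of 4.32% in CUMS and 0.129% in Ctrl, and CHH regions a median of 7.56% and 0.197%. Hypomethylated CHG regions had a median of 0.0675% in CUMS and 3.76% in Ctrl, and CHH regions a median of 7.45% in Ctrl. The medians over all annotated regions are drawn beside them in the plot of levels outside CG. Without values per rat, a level that is high in all 3 rats of a group cannot be told apart from one that is high in a single rat.

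**Figure D3:**
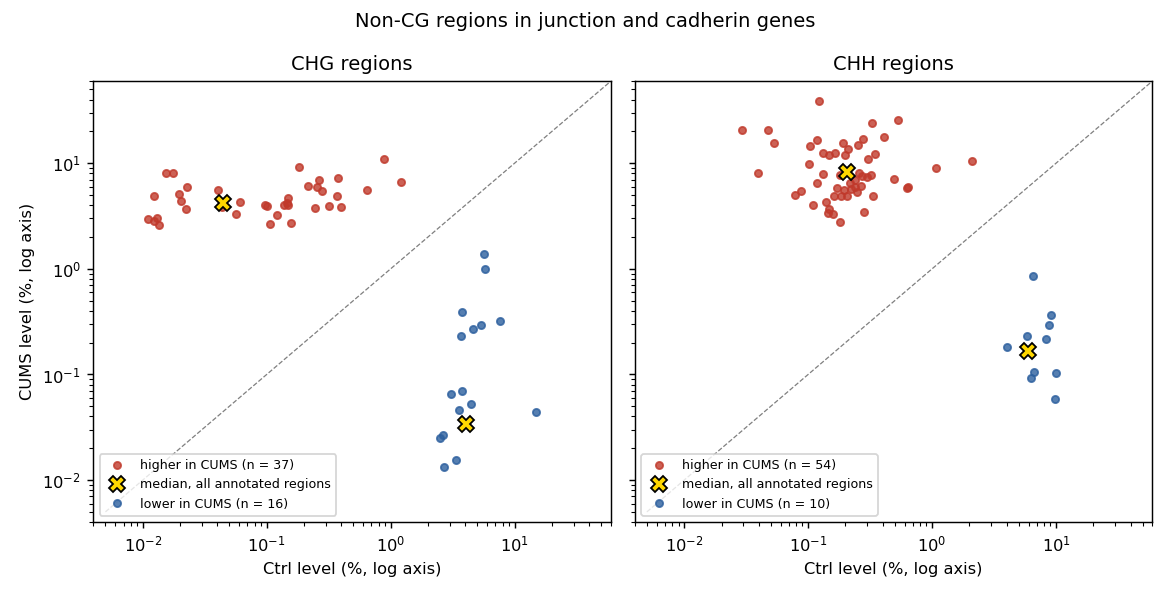
CUMS level against Ctrl level in percent, both on log axes, for each CHG region (left) and CHH region (right) of the named genes, with red points where CUMS was higher, blue points where it was lower, a dashed line of equal levels and gold crosses at the medians of all annotated regions in each direction. Points lie in separate groups on either side of the line, and in nearly all of them the lower level is below 1%; a scaffold gene with 1 region in each panel is not drawn.

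Regions of different contexts lay together at 10 places and comprised 22 of the 155 regions (14.2%), against 6.84% of all annotated regions. That background includes 12600 regions in no gene, and the share over regions in genes was not determined. At all 10 places the contexts had the same direction, as at 809 of 824 places over the whole table. CG took part at Cdh2, Cdh8 and Ctnnd2 only. Regions that did not overlap were compared with their neighbours. Of 8 pairs of regions of a gene within 1 kb of each other, 5 had the same direction and 3 opposite directions. Such pairs were not counted over all annotated regions, so these numbers have no background beside them. The opposite pairs were a CHH and a CHG region of Magi1 43 bp apart, a CHH and a CG region of Cgnl1 92 bp apart, and a CHH and a CHG region of Magi2 163 bp apart. In Magi1 the CHH region was higher in CUMS by 3.17 points and the CHG region was lower, with a difference of -2.98 points.

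Repeats were annotated in 61 of the 155 regions. A LINE was annotated in 25, a SINE in 22 and an LTR element in 17, and a region can hold more than 1 class. Of the CHH regions in repeats 30 were hypermethylated and 3 hypomethylated, and of those outside repeats 25 and 7 (90.9% and 78.1% hypermethylated). Over all annotated CHH regions these shares were 79.1% and 77.9%. For CHG regions the numbers were 16 and 7 in repeats and 22 and 9 outside (69.6% and 71.0%), against 68.7% and 68.5% over all annotated CHG regions. The shares were not compared by a test. Reads from repeats can be placed at more than 1 copy, and the share of such reads is not given in the tables.

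The distribution over genes was uneven. Of the 40 genes, 25 carried only hypermethylated regions, 2 (Cdh10 and Pard6g, with 1 region each) only hypomethylated ones, and 13 both. The same split over all genes with a region was not determined. A gene with 1 region can only be one-sided, and most regions of the whole table were hypermethylated, so this split is a description only. Within a single context, 10 genes went in both directions: Magi2 and Marveld2 in CG, Cdh8 in CG and CHH, Magi2, Cdh4, Cgnl1 and Tjp1 in CHG, Ctnna2 and Pard3 in CHH, and Cdh13 and Ctnnd2 in both CHG and CHH. There were 14 genes with 5 or more regions. Magi2 carried 15 regions, 13 of them hypermethylated, and Cdh4 carried 13, of which 10 were. Ctnna2, Marveld2 and Pard3 carried 7 each, Cdh8, Magi1, Pard3b and Tjp1 carried 6 each, and Cdh23 and Cgnl1 carried 5 each. In Cdh8, 3 of the 6 regions lay at the gene start.

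**Figure D4:**
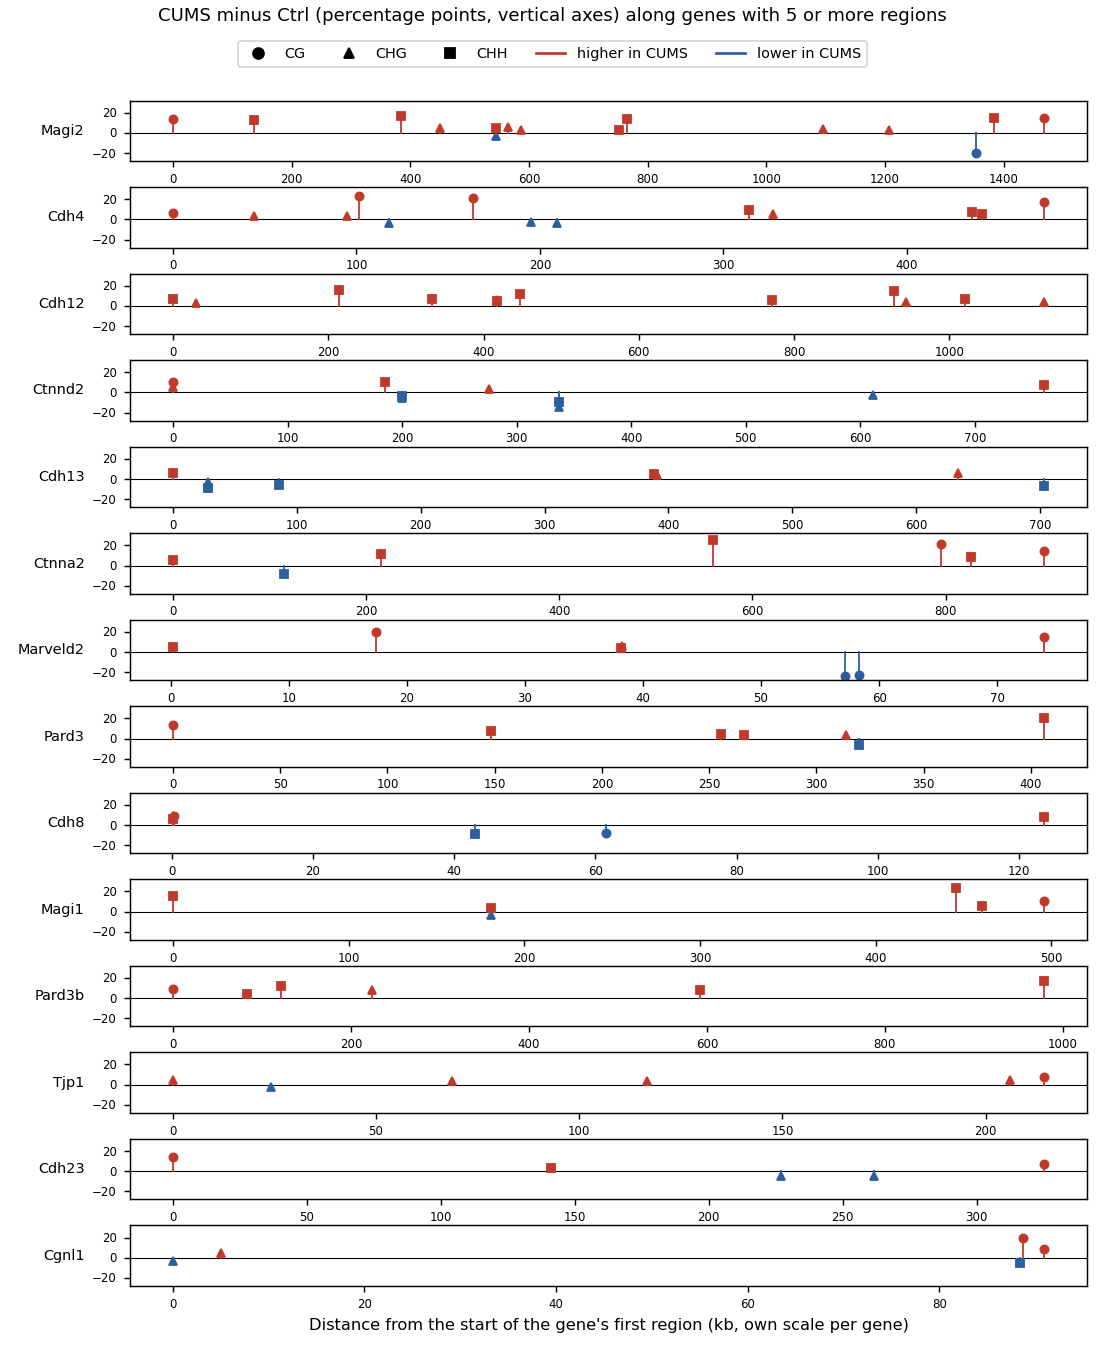
CUMS minus Ctrl in percentage points (vertical axes) against distance in kb from the gene's first region (horizontal axes, a separate scale for each gene) for the genes with 5 or more regions, with circles for CG, triangles for CHG and squares for CHH, red above 0 and blue below. The first and the last region lie 1468 kb apart in Magi2 and 1122 kb apart in Cdh12, and the 2 hypomethylated CG regions of Marveld2 stand side by side.

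The number of regions rose with gene length. Across the 86 genes the Spearman correlation of region count and RefSeq length was 0.66, and among the 40 genes with a region it was 0.58. Genes are not independent replicates, so this is a description. The 12 genes of 400 kb or more carried 92 of the 155 regions, and 11 of the 12 carried at least 1. The exception was Ctnna3, which encodes αT-catenin and is the longest of the 86 genes at 1586 kb. Of the 34 genes below 20 kb, 5 carried a region, 9 regions in all. Per 100 kb of gene the order was the reverse, with 0.806 regions in the longest class and 3.80 in the shortest. Marveld2, with 7 regions, had more than any other gene below 100 kb in RefSeq length, with the reservation on its annotation given above.

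**Figure D5:**
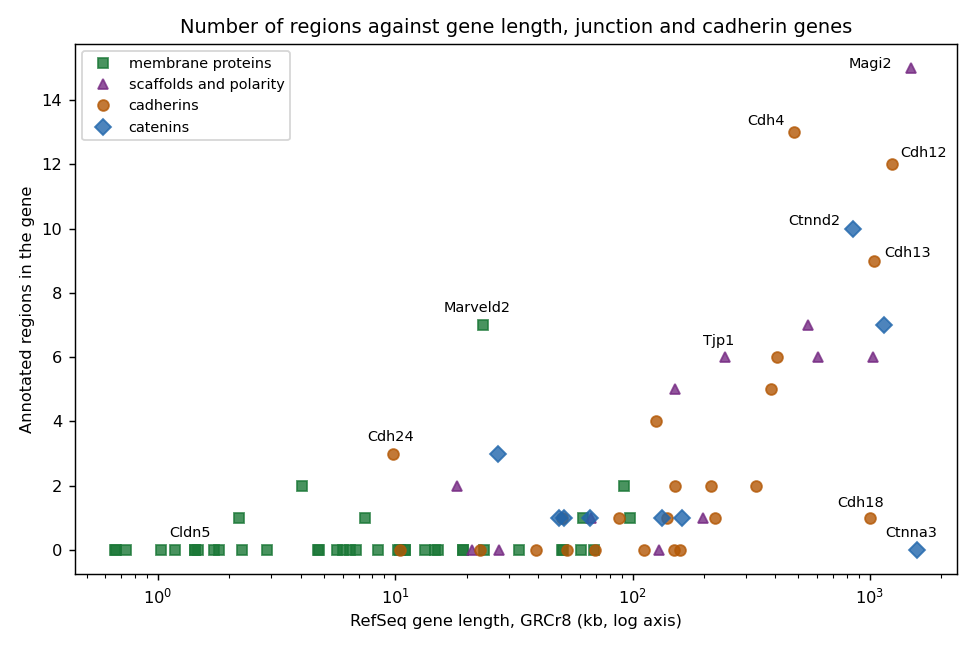
Number of annotated regions (vertical axis) against RefSeq gene length in kb on GRCr8 (horizontal log axis) for the genes of the rule, 1 scaffold gene not drawn, with a symbol for each class of protein. Long genes such as Magi2 (15 regions), Cdh4 (13) and Cdh12 (12) sit at the top, Ctnna3 is longest with 0, and Cldn5 lies among the short genes with none.

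Other junction genes from a fixed list were counted for comparison. Of 59 genes for nectins, desmosomes, gap junctions, tricellular contacts, polarity and actin links, 35 carried 61 regions, 48 hypermethylated and 13 hypomethylated. The share of 78.7% lay near the background of 75.3% over all annotated regions and 78.1% over those in genes. Genes that link junctions to actin carried 20 hypermethylated and 3 hypomethylated regions, desmosomal genes 10 and 2, and nectins 4 and 3, and these small counts were not tested against that background. Of the 8 gap junction genes only Gjb2 carried a region. The largest difference was in an intron of Pkp1, which encodes the desmosomal plakophilin-1, at 92.6% in CUMS and 63.8% in Ctrl in a region of 4 cytosines. An intron of Ccm2, a gene of cerebral cavernous malformation, was at 85.2% and 65.7%. Ildr1, a partner of tricellulin at tricellular contacts, carried an intronic CG region at 66.9% in CUMS and 85.8% in Ctrl, whereas its CHH regions were higher in CUMS, at 20.2% against 6.20% and at 10.9% against 0.218%. The promoters of Arhgap21 and of the polarity scaffold Dlg1 were at 26.7% against 8.79% and at 24.1% against 6.41%.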

How the data were processed

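DNA methylation was measured by enzymatic conversion with TET2 and APOBEC3A in sorted hippocampal BMECs from 3 CUMS and 3 Ctrl rats, grouped by sample title. Unmethylated cytosines that escape conversion raise the level of a region. The study added unmethylated λDNA as a negative control, and values from it were not used here. Per the study's methods and the submitters' processing notes, the authors used FastQC 0.11.3, fastp 0.20.0, Bismark 0.16.3 with Bowtie2, mRatBN7.2 and DSS 2.50.0. The methods state a limit of 10 points, but the smallest listed difference was 2.00 points, and all listed regions were kept. The deposited levels are fractions (one fraction per region and group, named a mean in the file headers), and how the samples were combined is not given in the sources used here. They are printed in percent. The authors' columns of difference and areaStat (the summed DSS statistic) were not used, and differences were computed as CUMS minus Ctrl. The tables give no read counts and no values per sample. The methods state coverage per library only, so the depth per region is unknown, and no test was run. The planned permutation test on samples was therefore not possible.

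Regions were chosen by gene symbol, and the role groups were also assigned by symbol. Named are the blotted proteins, all regions at promoters, TSSs or 5′ UTRs, the 3 largest CG differences and the largest CHG and CHH difference per role group, all differences of 20 points or more, genes with 5 or more regions, and genes with both directions in 1 context. The genes and lists were chosen with earlier results of these data known. A scaffold gene with 3 hypermethylated regions is counted but not described here. RefSeq names, lengths and neighbours (GRCr8) and promoter windows were joined by symbol. Python 3.11.15, pandas 2.3.3, scipy 1.17.1 and matplotlib 3.10.9 were used, and the counting steps were tested on simulated data.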

Additional observations from a re-analysis of the deposited data

Results flagged for a closer look

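The full list of regions holds CHH regions that the annotation table leaves out. In the stretches between the first and the last annotated region of the 24 genes with more than 1 region, 471 such regions were found, all CHH, of which 334 were hypermethylated and 137 hypomethylated (70.9% hypermethylated). They were flagged because the comparisons above do not use them. The share lies above the 64.6% found over the whole CHH part of that list, which includes the annotated regions. It lies below the 84.6% of the annotated CHH regions in these genes. The median absolute difference was 2.75 points over the whole CHH part, against 7.36 over all annotated CHH regions. These shares therefore cover regions with differences of unlike size. The numbers were largest in Magi2 (47 hypermethylated and 18 hypomethylated), Ctnna2 (33 and 17), Pard3b (36 and 12) and Cdh4 (33 and 15). Cdh12, whose annotated regions were all hypermethylated, held 22 and 17. Without gene annotation, these regions are placed by position only, and a stretch can hold other genes.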

How the results depend on the processing

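Of 25 alternatives over 5 results, 14 left the value in place, 11 moved it and none reversed it. A reversal was possible only for the share of hypermethylated regions and the median CG difference, not for counts or the promoter share. A share counted as moved when it left its exact 95% interval, and a count or median when it changed by over 1.5 times. The number of regions was 49 at a difference of at least 10 points, 13 at 20 points and 626 with all regions of the full list in the stretches of the genes. The share of hypermethylated regions was 91.8% at 10 points and 92.1% with each gene counted once by its majority (38 genes, ties left out). Neither share was determined over all annotated regions, so neither can be set against the background given above. Of the 49 regions at 10 points, 28 were CG regions. The share was 88.9% for CG, 70.4% for CHG and 73.3% with all regions of the full list in the stretches of the genes. The number of genes with a region was 25 at 10 points and 22 for CG regions only. The share of regions in a promoter was 22.2% for CG only. The share of hypermethylated regions stayed within its interval when Magi2, Marveld2 or the catenin-named genes grouped apart from the catenins were left out. It also did so without regions of fewer than 10 cytosines, or without regions annotated to a second gene. The share without regions annotated to a second gene and the share without Marveld2 were chosen after seeing the data. The promoter share was recomputed for CG only. The cause of the other changes was not tested. No paired analysis was possible because each group is given as 1 combined level, and for the same reason no replicate could be left out. The methods state coverage for whole libraries, and the depth of single regions is unknown, so no interval can be given for a level.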
